A study of Mus musculus with 24 samples.

Results

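The transcripts of 9 chemokine genes, Xcl1, Ccl3, Ccl4, Ccl5, Ccl1, Ccl9, Ccl22, Cxcl9 and Cxcl10, were followed through 24 libraries of mRNA from activated T cells. They were taken by gene symbol, 1 row each, from the 48526 genes of the deposited files, and all 9 passed the filter on low counts. The spleens of OT-1 mice were the source in every group; in this line a transgenic receptor directs the CD8 T cells against a peptide of ovalbumin. Splenocytes were cultured with 2 µg/mL peptide. The groups, each of 4 libraries, were peptide plus a TLR7 agonist at 72 h and 24 h, peptide plus a TLR2 agonist at 72 h and 24 h, and peptide alone (OVA) at 72 h and 24 h. TLR7 senses single-stranded RNA and TLR2 senses lipoproteins of bacteria. Agonists were added 1 h before the peptide. The labels name those groups TLR2 and TLR7 without tying a compound to them; among the compounds listed, the TLR2 agonist is Pam3CSK4 at 300 ng/mL, while TLR7 is the target of both R848 at 10 µg/mL and gardiquimod at 3 µg/mL. T cells were recovered from the mixed culture by immunomagnetic negative selection, so other spleen cells were present during the culture. No unstimulated group is among these libraries, and the labels give no age, sex or number of mice. The labels do not say whether the 4 replicates came from separate mice or cultures, so p-values measure the spread between libraries, which may be technical.

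Chemokines are small secreted proteins that steer cells along a gradient through G protein-coupled receptors. Activated CD8 T cells are known makers of XCL1, CCL3, CCL4 and CCL5, which draw dendritic cells, macrophages and further T cells to the site of antigen. CXCL9 and CXCL10 are classical interferon-induced ligands of CXCR3 and recruit effector T cells, while CCL22, CCL1 and CCL9 are better known from dendritic cells, T helper cells and myeloid cells.

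The libraries held 10.5 to 27.1 M expected counts each, with 5 between 10.5 and 11.7 M and 19 between 21.5 and 27.1 M. Levels are given as CPM, counts divided by the library's scaled total in M. The floor of detection, taken as 3 counts, is 0.286 CPM at the lowest depth and 0.111 CPM at the highest, for counting error only. In a principal component analysis that left out all chemokine and chemokine receptor genes, 60.3% of the variance lay on the first component. It separated the times in 16 of the 24 libraries. On it 8 libraries lay between the 2 times: replicates 1 and 3 of OVA at 24 h, 3 and 4 of TLR7 at 24 h, 4 of OVA at 72 h, and 1, 3 and 4 of TLR2 at 72 h. They are called the middle libraries here, and the other 16, of which 8 are from each time, the clear libraries. TLR2 at 72 h keeps only 1 clear library. Results on the 9 chemokine genes are given with and without them, and what set them apart was not tested. Their labels were kept, but whether the content of these 8 libraries matches its label could not be settled from the files, and this bears on every comparison of times or agents made with all 24. The 8 had 22.7 to 27.1 M counts, so none was shallow. On the first component the middle libraries of 24 h ran from -21 to -12.9 and those of 72 h from -13.6 to -1.7. The clear ones stood at 84.9 to 98.9 at 24 h and at -89.7 to -56.4 at 72 h. The middle 24 h libraries were thus no nearer to the clear 24 h ones than the middle 72 h libraries were. The T cell label was borne out by Cd8a (457 to 904 CPM) and Cd3e (107 to 321 CPM) in every library, with Cd4 at 0 to 2.00 CPM.

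On mouse build GRCm38, GENCODE M21 places Ccl5 at chr11:83525778-83530518, Ccl9 at chr11:83572919-83578636 and Ccl3 at chr11:83647844-83649355, all on the minus strand. Ccl4 follows on the plus strand at chr11:83662584-83664683, 13.2 kb from Ccl3. Ccl1 lies apart on the same chromosome at chr11:82176657-82305690 (minus). Cxcl9, at chr5:92321347-92328079, and Cxcl10, at chr5:92346638-92348889, are neighbours on the minus strand with 18.6 kb between them. Xcl1 is at chr1:164931644-164935527 (minus) and Ccl22 at chr8:94745590-94751699 (plus). All are protein-coding genes. The Cxcl10 gene overlaps exons of Art3 on the opposite strand, and Art3 had at most 6 counts in any library. The antisense transcript Gm20743 overlaps Xcl1 and had 0.257% to 1.09% of the Xcl1 counts in the 16 libraries with at least 1000 Xcl1 counts. Whether strand was used in the counting is not known here, so reads of these overlapping pairs cannot be told apart with certainty.

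The 4 promoters shown are those of the genes that separated TLR7 from peptide alone at 24 h in the clear libraries, Cxcl10 upward and Ccl22 and Ccl1 downward, and of Cxcl9, the neighbour of Cxcl10. The sequences are from RefSeq (GRCm38.p6), up to 250 bases before the RefSeq start, written 5′ to 3′ on the gene's strand. Capitals mark matches to an NF-kB core (GGG and CC with any 5 bases between them) or to an interferon-stimulated response element, ISRE (2 copies of GAAA with any 2 bases between them), on either strand, with overlapping matches merged. They cover chr5:92348890-92349139 for Cxcl10, chr5:92328080-92328329 for Cxcl9, chr8:94745434-94745589 for Ccl22 (156 bases, since the last 94 lie inside the GENCODE gene) and chr11:82179813-82180062 for Ccl1, which lies within the longer GENCODE gene.
Cxcl10: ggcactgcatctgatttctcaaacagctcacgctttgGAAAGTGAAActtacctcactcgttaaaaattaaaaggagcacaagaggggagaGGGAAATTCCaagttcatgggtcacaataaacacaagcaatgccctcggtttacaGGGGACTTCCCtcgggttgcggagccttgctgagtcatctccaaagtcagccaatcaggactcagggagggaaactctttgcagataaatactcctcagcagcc
Cxcl9: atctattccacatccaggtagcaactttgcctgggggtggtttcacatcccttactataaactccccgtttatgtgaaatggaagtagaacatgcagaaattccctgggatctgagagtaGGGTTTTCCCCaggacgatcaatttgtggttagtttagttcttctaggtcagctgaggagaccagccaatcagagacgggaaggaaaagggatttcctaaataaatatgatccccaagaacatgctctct
Ccl22: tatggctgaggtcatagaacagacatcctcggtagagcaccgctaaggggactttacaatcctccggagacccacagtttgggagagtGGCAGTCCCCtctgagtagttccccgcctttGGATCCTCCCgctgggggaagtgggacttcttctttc
Ccl1: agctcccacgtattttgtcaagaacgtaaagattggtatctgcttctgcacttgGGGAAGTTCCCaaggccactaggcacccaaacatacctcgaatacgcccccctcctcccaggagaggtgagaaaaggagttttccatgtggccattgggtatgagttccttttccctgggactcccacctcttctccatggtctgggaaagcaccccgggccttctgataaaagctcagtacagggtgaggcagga
The Cxcl10 window holds the ISRE match and 4 NF-kB core matches, of which 3 overlap, the Cxcl9 window 3 NF-kB core matches at 1 place, and the Ccl22 and Ccl1 windows 2 each. Of the 9 genes, 7 had a promoter in the table. An NF-kB core was found in 5 of these 7, against 45.8% of 32851 mouse promoters of the same length, and an ISRE in 1 (Cxcl10), against 2.98%. The interferon-gamma activated site TTCNNNGAA was in 0 of 7, against 7.02%. The core GGAAA bound by NFAT, which can overlap the other motifs, was in 6 of 7, against 55.6%, and the AP-1 site TGANTCA in 2 of 7 (Ccl9 and Cxcl10), against 6.75%. These are letter matches in a short window and no measure of binding.

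Most of these chemokine transcripts lay lower at 72 h than at 24 h in the clear libraries, whichever agent had been added. For Xcl1, Ccl3, Ccl4, Ccl1, Ccl9, Cxcl9 and Cxcl10, 7 of 9 genes, every clear 72 h library lay below every clear 24 h library. Of the 14560 genes tested, 19.0% did the same, and the libraries called clear had been picked by the other genes. The exceptions were Ccl22, which was near 0 in the TLR7 libraries already at 24 h, and Ccl5, which was low at both times in most libraries. For every gene but Ccl1, the median of the middle libraries lay between those of the clear 24 h and clear 72 h libraries. Single middle libraries could lie within the clear 24 h range, as all 8 did for Ccl5. For Xcl1, Ccl3 and Ccl4 the middle libraries of OVA (1 library) and TLR2 (3 libraries) at 72 h lay within the range of the 24 h libraries.

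**Figure D1:**
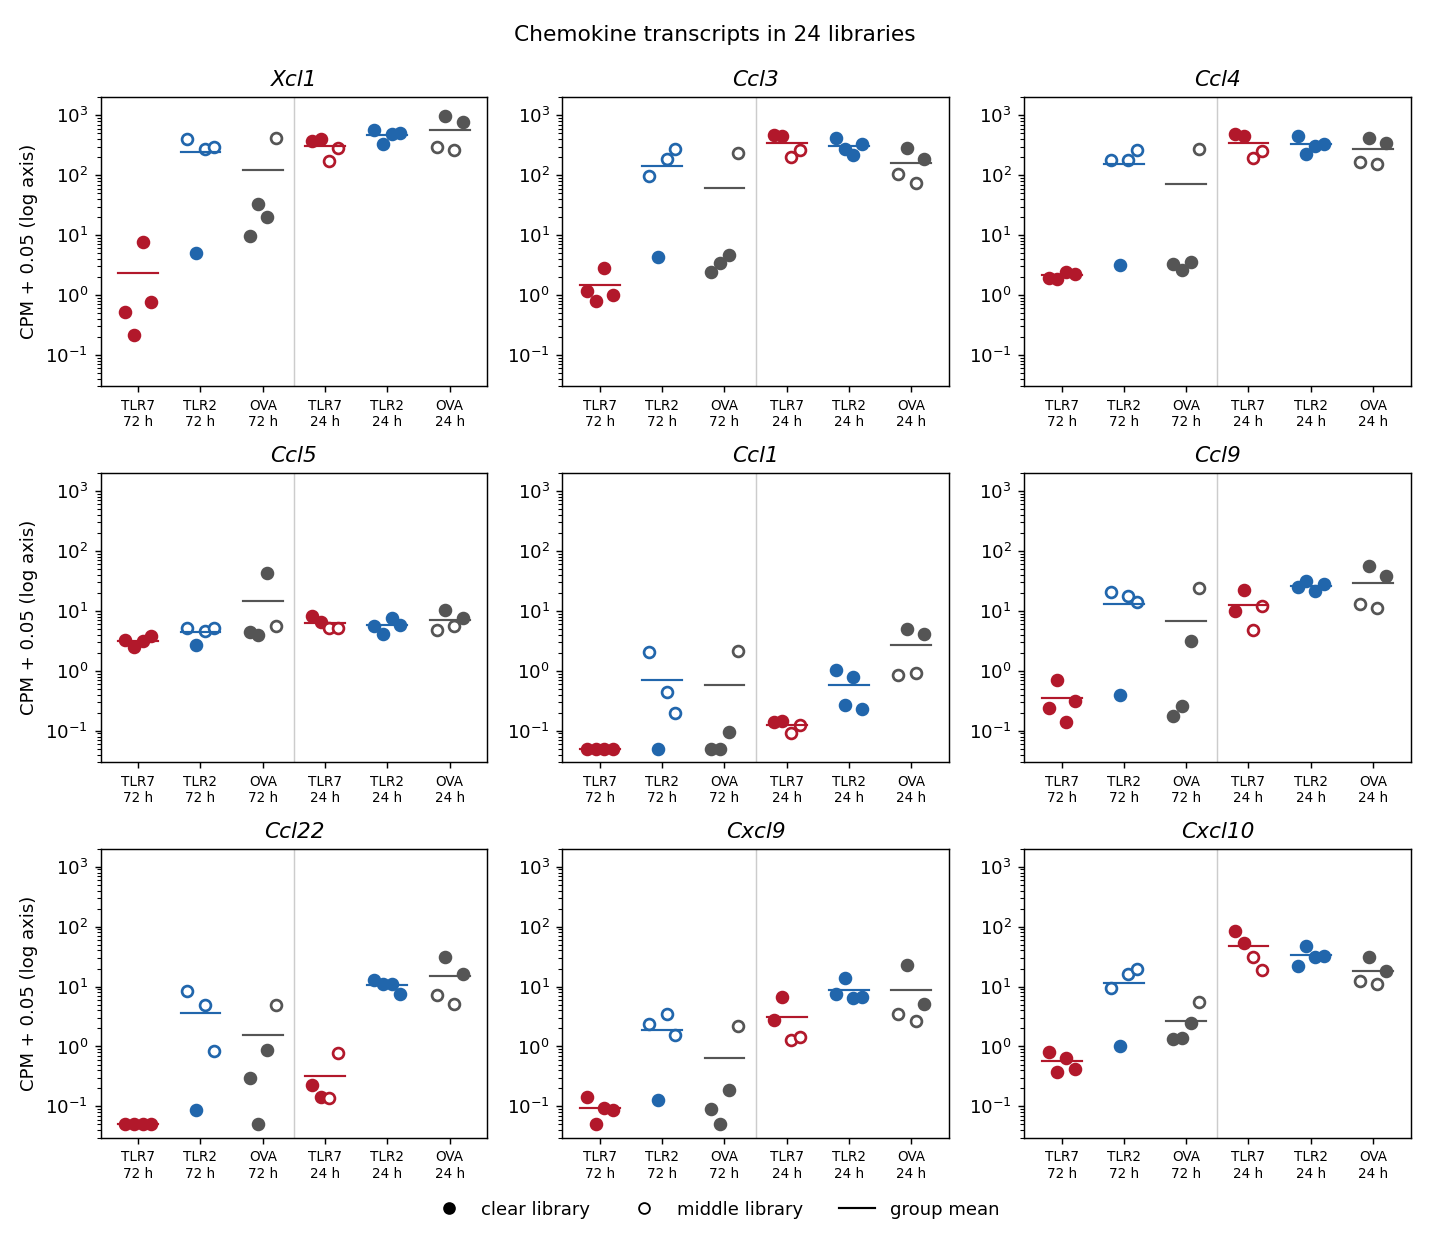
Level of each chemokine transcript in every library, as CPM + 0.05 on a log axis, by agent and time. Filled points are clear libraries, open points are the 8 middle libraries and bars are group means. For Xcl1, Ccl3 and Ccl4 the open points at 72 h lie with the 24 h libraries. Ccl5 stays between 2.40 and 10.4 CPM apart from 43.6 CPM in 1 OVA library at 72 h.

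Xcl1 encodes lymphotactin, the ligand of XCR1 on cross-presenting dendritic cells. At 72 h it stood at 0.475, 0.165, 7.62 and 0.720 CPM in TLR7 libraries 1 to 4, at 397, 5.05, 272 and 299 CPM in TLR2 libraries, and at 9.51, 33.1, 19.8 and 423 CPM in OVA libraries. At 24 h it stood at 370, 404, 175 and 280 CPM in TLR7, at 570, 328, 487 and 505 CPM in TLR2, and at 293, 972, 264 and 765 CPM in OVA libraries. Every value above 200 CPM at 72 h belonged to a middle library, and at 24 h the groups overlapped. At 72 h all 4 TLR7 libraries lay below all OVA libraries, as 5.27% of all genes did, and 3 of them below the clear TLR2 library.

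Ccl3 and Ccl4 encode MIP-1α and MIP-1β, chemokines that activated T cells secrete together. Ccl3 at 72 h stood at 1.14, 0.744, 2.83 and 0.948 CPM in TLR7, at 96.3, 4.32, 185 and 278 CPM in TLR2, and at 2.40, 3.34, 4.60 and 235 CPM in OVA libraries. Ccl3 at 24 h stood at 471, 460, 198 and 264 CPM in TLR7, at 415, 275, 220 and 331 CPM in TLR2, and at 104, 285, 75.6 and 186 CPM in OVA libraries. The 24 h groups overlapped, with the 2 clear TLR7 libraries above both clear OVA libraries, as 20.4% of all genes had them. Ccl4 followed the same course, at 1.82 to 2.38 CPM in TLR7, 3.14 CPM in TLR2 and 2.62 to 3.55 CPM in OVA among the clear 72 h libraries. Its clear 24 h libraries stood at 444 and 494 CPM in TLR7, 230 to 448 CPM in TLR2, and 344 and 416 CPM in OVA. Over all 24 libraries the log2 CPM of Ccl3 and Ccl4 had a Pearson r of 0.988, as a description of libraries that share their time course.

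Cxcl10, which encodes IP-10, was at its highest in TLR7 libraries at 24 h. At 72 h it stood at 0.760, 0.331, 0.583 and 0.379 CPM in TLR7, at 9.44, 0.957, 16.1 and 19.3 CPM in TLR2, and at 1.26, 1.31, 2.37 and 5.46 CPM in OVA libraries. At 24 h it stood at 85.8, 53.8, 30.5 and 18.7 CPM in TLR7, at 22.4, 47.0, 31.6 and 31.8 CPM in TLR2, and at 12.3, 30.5, 11.1 and 17.9 CPM in OVA libraries. The 4 TLR7 libraries lay below all TLR2 and OVA libraries at 72 h, as 1.95% of all genes did. At 24 h the 2 clear TLR7 libraries lay above all others of that time, as 3.61% of all genes did.

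Cxcl9, which encodes MIG, was lower than Cxcl10 throughout. Its clear 24 h libraries had 2.72 and 6.77 CPM in TLR7, 6.51 to 14.1 CPM in TLR2, and 5.13 and 23.1 CPM in OVA. At 72 h it had 1, 0, 1 and 1 counts in TLR7 libraries, 56, 2, 78 and 41 counts in TLR2 libraries, and 1, 0, 3 and 54 counts in OVA libraries. All its 72 h values above 1 CPM were from middle libraries, so that Cxcl9 was at or under the floor in each clear one.

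Ccl22 encodes MDC, a ligand of CCR4 best known from dendritic cells. At 24 h it stood at 0.176, 0.0954, 0.0865 and 0.724 CPM in TLR7 libraries, which is 4, 1, 2 and 19 counts, at 12.8, 11.0, 11.1 and 7.34 CPM in TLR2, and at 7.20, 30.9, 5.11 and 16.1 CPM in OVA libraries. The TLR7 libraries lay below all TLR2 and OVA libraries of that time, clear and middle alike, as 1.44% of all genes did. At 72 h it had 0 counts in the 4 TLR7 libraries, 8.25, 0.0383, 4.94 and 0.804 CPM in TLR2, and 0.252, 0, 0.819 and 4.90 CPM in OVA libraries. Here the high values were again in middle libraries.

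Ccl1 encodes TCA-3, a ligand of CCR8, and was the rarest of the 9. It had 2, 1, 1 and 2 counts in TLR7 libraries at 24 h, 23, 5, 18 and 2 counts in TLR2 and 20, 107, 21 and 46 counts in OVA libraries. In CPM the 24 h ranges were 0.0432 to 0.0954 in TLR7, 0.179 to 0.961 in TLR2 and 0.787 to 4.86 in OVA. TLR7 lay below both other agents, as 1.44% of all genes did, but each TLR7 library was under the floor of 3 counts. So was TLR2 replicate 4, at 2 counts, and TLR7 against TLR2 did not pass (edgeR adjusted p = 0.3). It had 0 counts in all TLR7 libraries at 72 h, 50, 0, 9 and 4 counts in TLR2 and 0, 0, 1 and 52 counts in OVA libraries.

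Ccl9, which encodes MIP-1γ, a ligand of CCR1, stood at 9.84, 22.6, 4.80 and 11.8 CPM in TLR7, at 24.6, 31.4, 21.5 and 27.9 CPM in TLR2, and at 13.1, 55.6, 11.1 and 38.5 CPM in OVA libraries at 24 h. In clear libraries at 72 h it was at 0.0897 to 0.661 CPM in TLR7, 0.344 CPM in TLR2 and 0.126 to 3.09 CPM in OVA. The 24 h values of the 3 agents overlapped, although each clear TLR7 library was below both clear OVA libraries, as 26.2% of all genes had them.

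Ccl5 encodes RANTES, a chemokine that effector and memory CD8 T cells are known to make late. It stood at 3.23, 2.40, 3.09 and 3.79 CPM in TLR7, at 5.11, 2.64, 4.55 and 5.05 CPM in TLR2, and at 4.33, 3.84, 43.6 and 5.62 CPM in OVA libraries at 72 h. At 24 h the range was 5.19 to 8.13 CPM in TLR7, 4.09 to 7.45 CPM in TLR2 and 4.68 to 10.4 CPM in OVA. The TLR7 libraries at 72 h lay below all TLR7 libraries at 24 h, as 26.6% of all genes did. They also lay below all OVA libraries at 72 h, as 5.27% of all genes did. All libraries but 1 lay between 2.40 and 10.4 CPM. The exception, OVA replicate 3 at 72 h, also had the highest sum over 16 macrophage marker genes, 83.1 CPM, against 5.81 to 10.6 CPM in the other OVA libraries at 72 h, with Lyz2 at 26.4 CPM. The part of these markers in its Ccl5 level was not tested.

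Levels were set against each other per kilobase of the principal transcript, on the CPM per kb scale. At 24 h the group means were highest for Xcl1, with 587, 903 and 1097 CPM per kb in TLR7, TLR2 and OVA. Ccl4 followed with 526, 501 and 409 CPM per kb, and Ccl3 with 455, 405 and 213 CPM per kb. Cxcl10 was the fourth with 43.1, 30.3 and 16.4 CPM per kb. Ccl5, Ccl9, Ccl22, Cxcl9 and Ccl1 had group means from 0.122 to 13.2 CPM per kb at 24 h. At 72 h the TLR7 means were at most 5.88 CPM per kb, that of Ccl5, with Ccl4 at 3.14 CPM per kb. The Xcl1 mean of 4.29 CPM per kb in that group rested on replicate 3, at 14.6 CPM per kb, with the others at 0.316 to 1.38 CPM per kb. As the cells were measured in bulk, fewer cells making a chemokine and less RNA per cell cannot be told apart in any of these levels.

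Ordered by group mean CPM, the 24 h groups came before the 72 h groups for Xcl1, Ccl3, Ccl4, Cxcl9 and Cxcl10. The neighbours in that order overlapped library by library in nearly all places. For Xcl1, Ccl4 and Cxcl10 the only gap was between OVA at 72 h and TLR7 at 72 h at the low end. For Ccl3, Cxcl9 and Ccl5 no neighbouring groups were apart. For Ccl22 the gap was between TLR7 at 24 h, at 1 to 19 counts, and TLR7 at 72 h, at 0 counts. Ccl9 had a gap between TLR2 at 24 h (26.3 ± 4.29 CPM, SD, n = 4) and TLR2 at 72 h (13.1 ± 8.90 CPM). For Ccl1 the gaps were between TLR2 at 24 h and TLR7 at 24 h, and between TLR7 at 24 h and TLR7 at 72 h. These Ccl1 gaps set 2 counts in the lowest TLR2 library against 1 to 2, and 1 to 2 against 0. Both Ccl1 gaps and the low end of the Ccl22 gap thus lie under the floor of 3 counts. Of all genes, 5.27% had TLR7 below OVA at 72 h without overlap, 8.52% had TLR7 below TLR2 at 24 h, and 26.6% under TLR7 and 24.0% under TLR2 had the 72 h below the 24 h libraries.

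The first comparison asked how the transcripts changed with time under each agent. With TLR7, where all 72 h libraries were clear, 6 of 9 chemokine genes were lower at 72 h (edgeR quasi-likelihood test, adjusted p under 0.05), against 24.2% of all genes tested. The fitted change was largest for Ccl3, a log2 value of -7.89 with an SE of 1.46 (edgeR adjusted p = 0.000916). Ccl4 changed by -7.37 ± 1.44 (edgeR adjusted p = 0.00124) and Xcl1 by -6.99 ± 1.35 (edgeR adjusted p = 0.00116). Cxcl10 changed by -6.54 ± 0.81 (edgeR adjusted p = 0.000193) and Ccl9 by -5.43 ± 1.37 (edgeR adjusted p = 0.00493). Cxcl9 passed with an edgeR adjusted p of 0.00442, on 3 counts in all 72 h libraries against 198 at 24 h, a 56.1-fold difference (95% counting interval 18.9 to 274). Ccl22 and Ccl1 did not pass; with 0 counts at 72 h, Ccl22 was at least 6.35-fold lower than at 24 h and Ccl1 at least 1.78-fold lower, against a floor of 3 counts over the group. For Ccl22 the 24 h mean rested on replicate 4, a middle library, and the bound was 3.18-fold against the clear 24 h libraries. Ccl5 changed by -0.99 ± 0.56 and did not pass (edgeR adjusted p = 0.15). The median over the 9 genes was -5.94, the same with both genes at their bound, and over all genes -0.01. Leaving out any 1 of the 8 libraries of these 2 groups gave 6 calls. Leaving out the 5 shallow libraries, 3 of them from TLR7, gave 0, with Xcl1 at -6.05, Ccl3 at -7.38, Ccl4 at -7.10 and Cxcl10 at -6.54 (edgeR adjusted p = 0.0832, 0.0814, 0.0838 and 0.0775). How many of all genes passed in that fit was not counted.

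With TLR2 and OVA the same comparison rested on the middle libraries. Under TLR2, 1 of 9 genes was lower at 72 h, against 17.4% of all genes, namely Cxcl10 with -1.53 ± 0.60 (log2, SE, edgeR adjusted p = 0.0484). That call was lost when any of TLR2 replicates 1 to 4 at 24 h or 1 to 3 at 72 h was left out, or without a filter on low counts. Under OVA, 3 of 9 genes were lower at 72 h, against 10.4%. These were Cxcl9 (-3.84 ± 1.05), Cxcl10 (-2.78 ± 0.64) and Ccl22 (-3.30 ± 1.13), with edgeR adjusted p of 0.0333, 0.0333 and 0.049. The count was 8 without OVA replicate 4 at 72 h, and 0 without OVA replicate 1, 2 or 3 at 72 h or replicate 2 or 4 at 24 h, or when only the OVA libraries were fitted. In the 16 clear libraries, 7 of 9 genes were lower at 72 h under TLR7, 8 of 9 under TLR2 and 8 of 9 under OVA, against 25.4%, 19.4% and 22.2% of 15818 genes. The TLR2 value then compares 1 library, assumed to vary like the others, with 4, and the added TLR7 call, Ccl1, rests on 0 counts at 72 h against 3 at 24 h. The clear libraries were picked as the ends of a component that follows time, which narrows the spread within groups. Calls with time in this fit, and their SE, therefore understate that spread. With all 24 libraries the SE of Ccl4 under OVA was 1.10. In the clear libraries the log2 fold change of Ccl4 was -7.78 ± 0.24 under TLR7, -6.69 ± 0.42 under TLR2 and -6.91 ± 0.26 under OVA. For Ccl3 they were -8.27 ± 0.40, -6.14 ± 0.65 and -6.10 ± 0.40, and for Xcl1 -7.26 ± 0.79, -6.52 ± 1.37 and -5.38 ± 0.80. Ccl5 did not pass under any agent in either set of libraries.

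**Figure D2:**
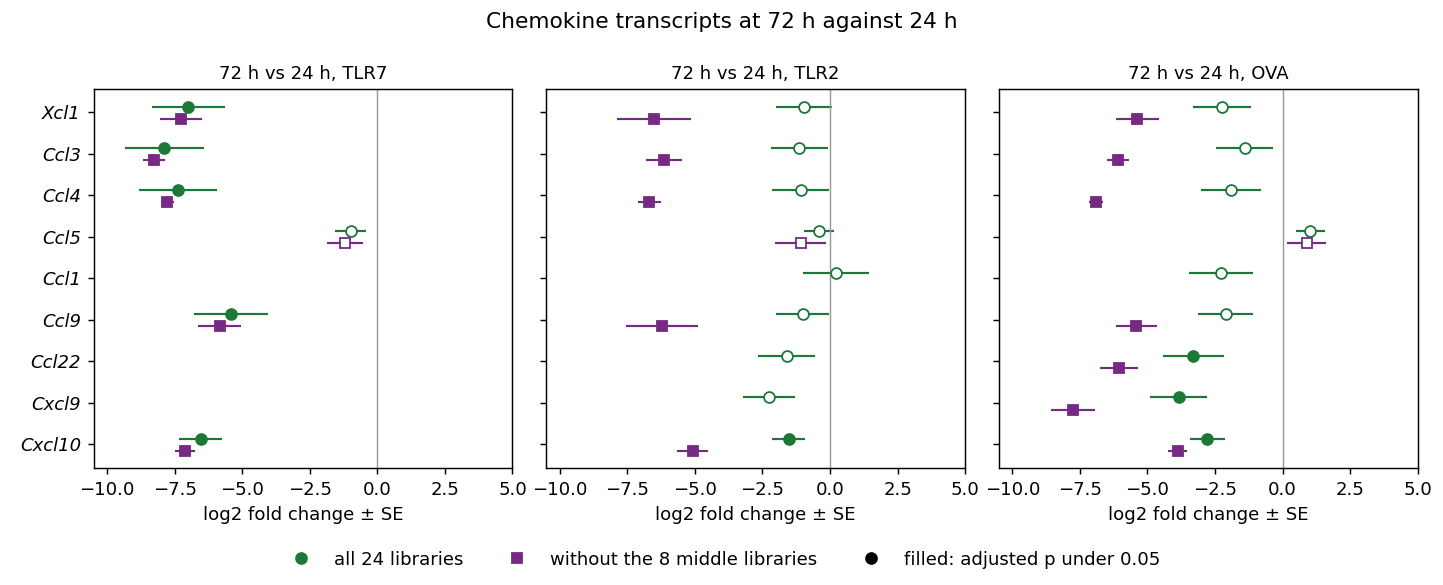
Log2 fold change at 72 h against 24 h for each chemokine gene under TLR7, TLR2 and OVA, with standard error bars; filled symbols have an adjusted p under 0.05, and genes with at most 3 counts in a group are not drawn. Green circles use all 24 libraries and purple squares the 16 clear ones: under TLR2 and OVA, Ccl4 moves to -6.69 and -6.91 without the middle libraries, and under TLR7 it is at -7.37 with all and -7.78 with the clear libraries.

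The second comparison set the agonists against peptide alone at 24 h. With all 24 libraries, 0 of 9 chemokine genes passed for TLR7 against OVA, where 0.220% of all genes did. In edgeR 3 of 9 had an unadjusted p under 0.05, as did 1471 of the 14560 genes tested. DESeq2 called 2 of the 9, and its calls over all genes were not counted. Ccl22 had a fitted change of -5.62 ± 1.32 (log2, SE, edgeR adjusted p = 0.0799) and Ccl1 of -5.05 ± 1.51 (edgeR adjusted p = 0.172), and these were the 2 that DESeq2 called. Cxcl10 had +1.40 ± 0.60 (edgeR adjusted p = 0.405). In the clear libraries alone, 2 of each agent, 3 of 9 genes passed, against 2.52% of all genes. Ccl22 was lower with TLR7, at 0.136 CPM in TLR7 against 23.5 CPM in OVA on average (log2 -7.20 ± 0.94, edgeR adjusted p = 0.00869). Ccl1 was lower on 3 counts in TLR7 against 153 in OVA, a 49.5-fold difference (95% counting interval 16.6 to 243, edgeR adjusted p = 0.0157). Cxcl10 was higher with TLR7, at 69.8 CPM in TLR7 against 24.2 CPM in OVA on average (+1.59 ± 0.35, edgeR adjusted p = 0.0298). Xcl1 (-1.11 ± 0.79), Ccl3 (+1.04 ± 0.38), Ccl4 (+0.36 ± 0.24) and Ccl9 (-1.48 ± 0.74) did not pass.

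Ccl22 also separated TLR7 from TLR2 at 24 h. With all libraries 0 of 9 chemokine genes passed, against 1.24% of all genes. In edgeR 1 of 9 reached an unadjusted p under 0.05, as did 3095 of the 14560 genes tested. DESeq2 called 1 of 9. In both cases it was Ccl22 (-5.14 ± 1.30, edgeR adjusted p = 0.057). Among the clear libraries Ccl22 was the 1 gene that passed, against 1.29% of all genes, with 0.136 CPM in TLR7 and 10.6 CPM in TLR2 (-6.05 ± 0.90, edgeR adjusted p = 0.00944). Cxcl10 had +1.13 ± 0.29 (edgeR adjusted p = 0.0714). For TLR2 against OVA at 24 h, 0 of 9 genes passed with or without the middle libraries, and 0% of all genes did; at an unadjusted p under 0.05 there were 0 of 9 with all libraries and 2 of 9 with the clear ones, and 0 were called by DESeq2. The 95% interval of the log2 difference ran from -2.39 to 1.83 for Xcl1, from -1.26 to 3.12 for Ccl3 and from -0.34 to 2.12 for Cxcl10, so these intervals hold changes of several fold in either direction for Xcl1 and upward for Ccl3 and Cxcl10. Over all genes 2212 had an unadjusted p under 0.05 in that comparison with all libraries, and 572 with the clear ones.

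At 72 h TLR7 against TLR2 sets 4 clear libraries against 1 clear and 3 middle ones. TLR7 was below TLR2 for 7 of 9 chemokine genes, against 3.93% of all genes. Cxcl10 had a change of -4.50 ± 0.77 (log2, SE, edgeR adjusted p = 0.0133), Xcl1 of -6.65 ± 1.33 (edgeR adjusted p = 0.0154), Ccl3 of -6.58 ± 1.39 (edgeR adjusted p = 0.0169) and Ccl4 of -6.21 ± 1.37 (edgeR adjusted p = 0.0196). Ccl9 (edgeR adjusted p = 0.03), Ccl22 (0.0316) and Cxcl9 (0.0452) made up the rest. Ccl22, at 0 counts in TLR7, was at least 82.4-fold lower, while the clear TLR2 library, at 0.0383 CPM, lay under the floor of 0.0426 CPM and gives no bound. Cxcl9 was 42.0-fold lower on 3 counts (95% counting interval 14.1 to 206). Against the single clear TLR2 library, 0 of 9 genes and 0% of all genes passed, with 1 of 9 at an unadjusted p under 0.05. The count was 0 without TLR2 replicate 1 or TLR7 replicate 1, 2 or 4, 3 without TLR2 replicate 3 or 4, and 4 without TLR7 replicate 3. The median over the 9 genes was -6.21, or -5.53 with Ccl22 and Ccl1 at their bound, and over all genes -0.04.

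Against OVA at 72 h, TLR7 was lower for 4 of 9 genes, against 3.21% of all genes. A fit on only these 2 groups gave 0 calls. With all groups the 4 were Xcl1 (-5.65 ± 1.27, edgeR adjusted p = 0.0165), Ccl3 (-5.38 ± 1.32, edgeR adjusted p = 0.0266), Ccl4 (-5.10 ± 1.31, edgeR adjusted p = 0.0331) and Ccl5 (-2.19 ± 0.57, edgeR adjusted p = 0.0343). For the first 3 the highest OVA library was replicate 4, a middle library, and without it the values were -3.04, -1.15 and -0.51. For Ccl5 it was OVA replicate 3, without which the value was -0.55 (edgeR adjusted p = 0.375). Without the middle libraries 2 of 9 genes passed, against 1.51% of all genes: Xcl1 (-3.00 ± 0.69, edgeR adjusted p = 0.0401), at 2.25 CPM in TLR7 against 20.8 CPM in OVA on average, and Cxcl10 (-1.64 ± 0.38, edgeR adjusted p = 0.0412), at 0.513 CPM in TLR7 against 1.65 CPM in OVA. Ccl4 was then at -0.51 ± 0.23 and Ccl3 at -1.13 ± 0.37, neither past the threshold. Leaving out 1 library gave 7 calls when it was OVA replicate 1, 2 when it was TLR7 replicate 3, 1 when it was OVA replicate 4 and 0 when it was TLR7 replicate 1, 2 or 4. Ccl22, at 0 counts in TLR7, was at least 35.0-fold lower than in OVA, and at least 8.39-fold lower than in the clear OVA libraries. The median over the 9 genes was -5.10, or -4.60 with Ccl22 and Ccl1 at their bound, and over all genes -0.08.

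TLR2 against OVA at 72 h gave 0 of 9 calls and 0% of all genes, with and without the middle libraries, and 1693 genes had an unadjusted p under 0.05 with all libraries. With all libraries 2 of 9 had an unadjusted p under 0.05 in edgeR, Cxcl10 (+2.13 ± 0.63, edgeR adjusted p = 0.255) and Ccl5 (-1.73 ± 0.55, edgeR adjusted p = 0.302), and 0 were called by DESeq2; with the clear libraries 1 of 9 had such a p. Without OVA replicate 4 at 72 h, the 1 middle OVA library, 5 of 9 passed, while the 3 middle TLR2 libraries stayed in.

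**Figure D3:**
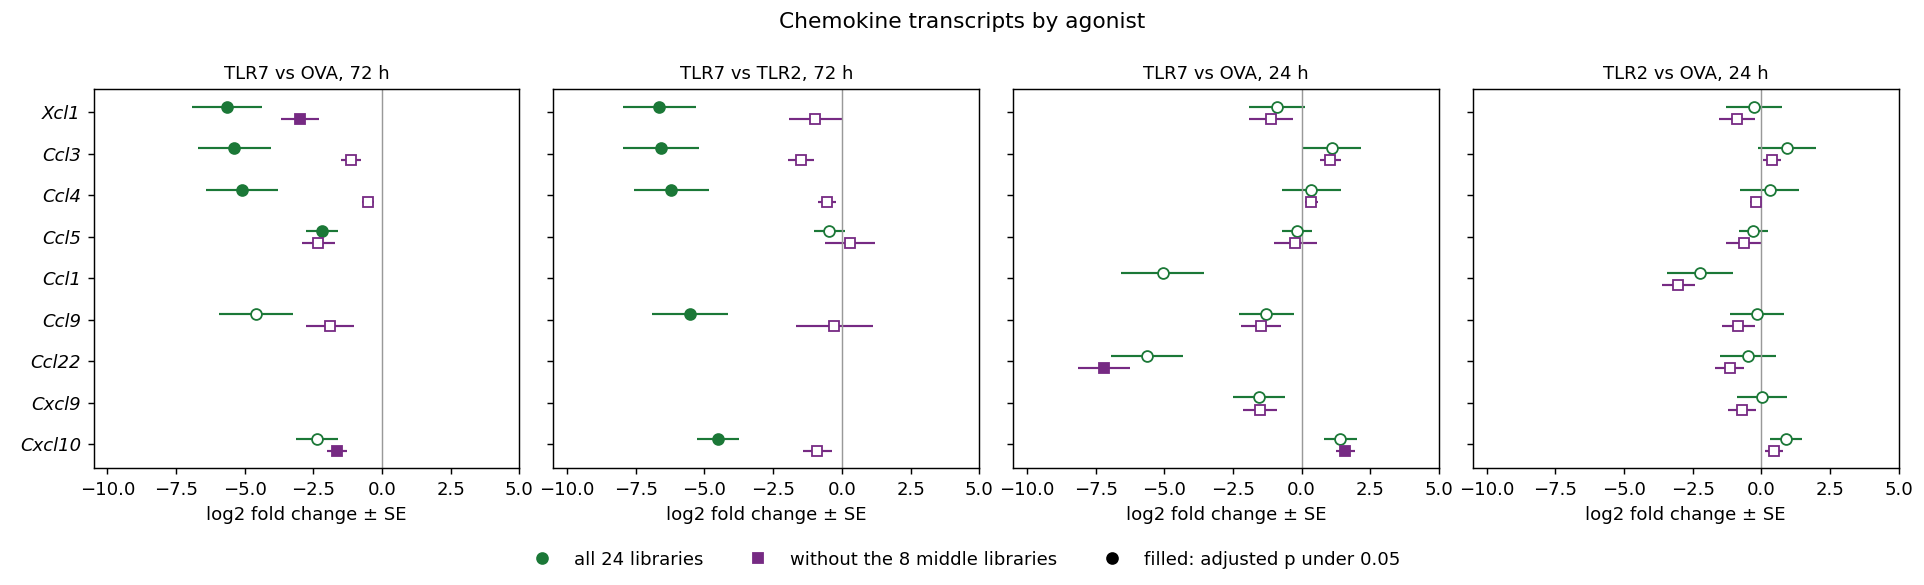
Log2 fold change of each chemokine gene between agents at 72 h and 24 h, with standard error bars; filled symbols have an adjusted p under 0.05, and genes with at most 3 counts in a group are not drawn. With the 16 clear libraries (purple squares) Ccl22 at -7.20 and Cxcl10 at +1.59 pass for TLR7 against OVA at 24 h, and the large differences at 72 h seen with all 24 libraries (green circles) shrink, for Ccl4 to -0.51 against OVA.

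The agonist effects at 72 h were also set against those at 24 h, which tests whether the effect itself changed with time. For TLR7 against OVA 0 of 9 genes passed, against 0.810% of all genes, and 3 were called by DESeq2. In edgeR 5 of 9 had an unadjusted p under 0.05, as did 2322 of the 14560 genes tested. Ccl3 had a difference of -6.48 ± 1.68 (edgeR adjusted p = 0.0673) and Cxcl10 of -3.76 ± 0.97 (edgeR adjusted p = 0.0668). Without the middle libraries 1 of 9 passed, against 0.284% of all genes, namely Cxcl10 at -3.22 ± 0.52 (edgeR adjusted p = 0.0286). In the clear libraries Cxcl10 was thus higher in TLR7 than in OVA at 24 h and lower at 72 h. For TLR2 against OVA 0 of 9 passed and 0% of all genes, and 0 of 9 were called by DESeq2. In edgeR 0 of 9 had an unadjusted p under 0.05, against 918 of all genes.

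The middle libraries held intermediate levels of most of these genes. As a percentage of the clear 24 h mean of the same agent, Xcl1 ran from 30.4% to 84.1% over the 8 libraries with a median of 53.1%. Ccl3 had a median of 50.5%, Ccl4 of 53.6%, Ccl9 of 51.6% and Cxcl10 of 44.8%. The medians of these 5 genes were thus close, but within a library the genes could differ widely. In OVA replicate 4 at 72 h, Ccl3 was at 99.6%, Ccl4 at 73.1%, Ccl9 at 50.8%, Xcl1 at 48.7% and Cxcl10 at 22.6%. Cxcl9 was lower, with a median of 24.8% and a highest value of 38.8%. The middle libraries of the 2 times overlapped for Ccl3, which stood at 99.6% in OVA replicate 4, and at 31.0%, 59.7% and 89.7% in TLR2 replicates 1, 3 and 4 at 72 h, against 42.5% and 56.8% in the TLR7 and 44.2% and 32.1% in the OVA libraries at 24 h. No test was run on these values, since the libraries were grouped by the data.

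**Figure D4:**
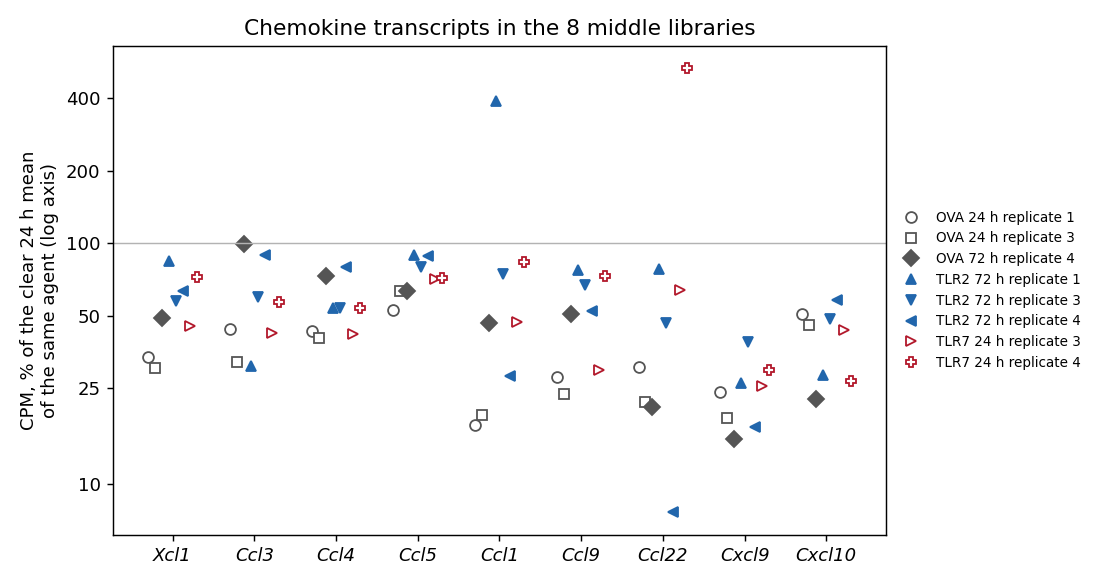
Level of each chemokine transcript in the 8 middle libraries as a percentage of the clear 24 h mean of the same agent, on a log axis; filled symbols are 72 h and open symbols 24 h libraries. Xcl1, Ccl3 and Ccl4 lie between 30.4% and 99.6% and Cxcl9 between 15.3% and 38.8%, while Ccl1 reaches 391% in TLR2 replicate 1 at 72 h and Ccl22 534% in TLR7 replicate 4 at 24 h, where the clear TLR7 mean is 0.136 CPM.

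The genes most like each chemokine were looked for by Pearson r of log2 CPM over the 24 libraries among genes with a mean of at least 5 CPM. All these libraries share the contrast between 24 h and 72 h, so high r values are common and are given as a description. Xcl1 was most like Lad1 (0.968), Hivep3 (0.962) and Gfod1 (0.961). Ccl3 was most like Ccl4 (0.988) and Il2 (0.988), the growth factor of activated T cells, and Ccl4 most like Ccl3 and Pop1 (0.980). For Ccl5 the closest were Nrbp1 (0.924), Dusp1 (0.905) and Relb (0.896), a member of the NF-kB family. Ccl9 was most like Pou2af1 (0.975), Cd22 (0.964) and Bank1 (0.964), all genes of B cells. Ccl22 was most like Snn (0.937), Prickle1 (0.935) and Cd79b (0.927), and Ccl1 like Itm2a (0.918), Cd79b (0.885) and Ccl22 (0.881); Cd79b encodes a chain of the B cell receptor. Cxcl9 was most like Pdf (0.974), Afp (0.973) and Tamm41 (0.972), and Cxcl10 like Eif4enif1 (0.963), Cd6 (0.961) and Ccl3 (0.961). Among the 9 members the lowest r values were those of Ccl5, from 0.277 with Ccl4 to 0.420 with Ccl9.

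The B cell marker Cd79a moved with Ccl22, Ccl1 and Ccl9 at 24 h. Cd79a, the other chain of the B cell receptor, was at 2.21 to 4.22 CPM in TLR7, 7.22 to 21.9 CPM in TLR2 and 13.3 to 30.9 CPM in OVA libraries. The sum over 17 B cell marker genes was 407 to 618 CPM in TLR7, 740 to 920 CPM in TLR2 and 562 to 1312 CPM in OVA libraries at 24 h, and 150 to 290, 296 to 708 and 407 to 885 CPM at 72 h. Cd79a in the TLR7 libraries lay below all TLR2 and OVA libraries at 24 h, as Ccl22 did. The part of B cells in the Ccl22, Ccl1 and Ccl9 differences was not tested.

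Of the other cell types, dendritic cell, plasma cell and NK lists were summed first. The 15 dendritic cell genes summed to 886 to 1121, 752 to 947 and 716 to 998 CPM in TLR7, TLR2 and OVA libraries at 24 h, and to 491 to 779, 728 to 1018 and 798 to 1167 CPM at 72 h. The 8 plasma cell genes summed to 373 to 1695 CPM, the 10 NK genes to 23.2 to 163 CPM and the 11 neutrophil genes to 0.0422 to 139 CPM over all libraries. The 16 macrophage genes summed to 8.65 to 13.2, 12.7 to 19.6 and 8.66 to 63.5 CPM in TLR7, TLR2 and OVA libraries at 24 h, and to 3.87 to 7.98, 8.38 to 14.3 and 5.81 to 83.1 CPM at 72 h. Adgre1, which marks macrophages, was at 0 counts in all TLR7 libraries at 72 h. Clec9a, which marks cross-presenting dendritic cells, had at most 6 counts in any library, and Flt3 was at 0 to 1.41 CPM. The sum over the 15 dendritic cell genes stood far above these markers and cannot be read as a level of dendritic cells. Which of the 15 genes carried that sum was not tested. Ncr1, which marks NK cells, was at 0 to 1.80 CPM. S100a8, which marks neutrophils, was at 0.130 to 2.00 CPM in TLR7, 0.570 to 6.21 CPM in TLR2 and 0.495 to 39.9 CPM in OVA libraries at 24 h. Its level was 0 counts in every TLR7 library at 72 h. OVA replicate 2 at 24 h held both the highest Lyz2 level, 48.3 CPM, and the highest Cxcl9 level, 23.1 CPM, and whether the one bears on the other was not tested.

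The other chemokine ligands of a list of 32 symbols, 38 rows in the files, were mostly silent: 24 rows had at most 3 counts in every library and 8 passed the filter. At 72 h against 24 h under TLR7, 3 of the 8 fell and 2 rose, where 24.2% of all genes fell and 19.0% rose. Ccl6, a ligand of CCR1, had -3.26 on the log2 scale (edgeR adjusted p = 0.00983), Cxcl16 -2.07 (edgeR adjusted p = 0.00892) and Cxcl11, a ligand of CXCR3, -3.85 (edgeR adjusted p = 0.0166). Cxcl11 had 3 to 9 counts in TLR7 libraries at 24 h and 0 to 1 at 72 h, so its fold rests on values near the floor. The rises were Ccl27a (+1.49, edgeR adjusted p = 0.0155) and Pf4 (+0.94, edgeR adjusted p = 0.0406). Of these 5 calls, only Cxcl16 and Ccl6 passed under every leave-out of 1 library. Under TLR2, 1 of the 8 rose (Ccl27a, +1.69, edgeR adjusted p = 0.0155), against 21.7% of all genes. Under OVA 1 fell (Cxcl11, -3.95, edgeR adjusted p = 0.0333), against 10.4%, at 0 to 1 counts in OVA libraries at 72 h. Neither call passed under every leave-out of 1 library. Between agents the 1 call was Ccl6, lower in TLR7 than in TLR2 at 72 h (-3.33, edgeR adjusted p = 0.0439), at 0.136 ± 0.0915 CPM in TLR7 against 1.34 ± 0.918 CPM in TLR2 (SD, n = 4 each); without the middle libraries it was at +0.19 (edgeR adjusted p = 0.985).

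Of 23 chemokine receptor genes, 17 passed the filter. Cxcr3, the receptor of CXCL9 and CXCL10, did not pass between agents with all libraries. It averaged 7.08, 5.63 and 3.80 CPM in TLR7, TLR2 and OVA at 72 h and 5.58, 6.79 and 6.04 CPM at 24 h. Ccr4, the receptor of CCL22, rose with time under TLR7, to 85.3 ± 12.7 CPM at 72 h against 14.3 ± 10.8 CPM at 24 h (+2.57, edgeR adjusted p = 0.00201). Ccr7, the lymph node homing receptor, was lower in TLR7 than in OVA at 72 h, at 402 ± 142 CPM in TLR7 against 833 ± 210 CPM in OVA (-1.05, edgeR adjusted p = 0.00871), with Ccrl2 (-2.08, edgeR adjusted p = 0.0313) and Ccr9 (-6.54, edgeR adjusted p = 0.0171), 3 of 17 lower and 0 higher, against 3.21% of all genes lower. All 3 also passed in the clear libraries, where Ccr6 did too (-3.50, edgeR adjusted p = 0.0244). The highest Ccr9 level, 33.0 CPM, was in OVA replicate 3 at 72 h, the library with the high Ccl5. Without that library Ccr9 was at -1.47 (edgeR adjusted p = 0.395). Ccr9 had 1 to 2 counts in TLR7 libraries at 72 h, under the floor. Ccr7 was also lower in TLR7 than in TLR2 at 72 h (-0.92, edgeR adjusted p = 0.0228), and its TLR7 effect was lower at 72 h than at 24 h (-1.29, edgeR adjusted p = 0.0432). Neither passed in the clear libraries, where they were at -0.60 (edgeR adjusted p = 0.601) and -1.16 (edgeR adjusted p = 0.165). Cxcr5 was lower in TLR7 than in TLR2 at 24 h (-1.38, edgeR adjusted p = 0.0416), 1 of 17 against 0.604% of all genes, but did not pass in the clear libraries (-1.13, edgeR adjusted p = 0.171). None of these receptor calls between agents passed under every leave-out of 1 library. With time under TLR7, Ccr9 (-3.97) and Ccr7 (-1.14) fell beside the rise of Ccr4, 2 and 1 of 17 against 24.2% and 19.0% of all genes. Under TLR2, 4 of 17 rose and 0 fell, where 21.7% of all genes rose, so that the share was near that of all genes. They were Cxcr4 (+2.91), Cxcr1 (+3.79), Ccrl2 (+1.55) and Cxcr6 (+1.09). Cxcr1 had 0 to 1 counts in TLR2 libraries at 24 h and 4 to 15 at 72 h, so its fold rests on values near the floor. Under OVA, Ccr6 rose (+3.61) and Cxcr5 fell (-1.49), both with an edgeR adjusted p of 0.0333, against 8.17% of all genes that rose and 10.4% that fell. The calls with time under TLR7 and OVA also passed in the clear libraries. Under every leave-out of 1 library, 2 of the 3 calls with time under TLR7 passed (Ccr7 and Ccr4). Under TLR2 1 of the 4 did (Cxcr4), and under OVA 0 of the 2.

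Among 29 regulators, a list of cytokines, cytokine receptors, transcription factors and an NF-kB inhibitor, 2 were higher in TLR7 than in OVA at 24 h, against 0.151% of all genes, and 0 lower. These were Tnf, at 33.6 ± 9.61 CPM in TLR7 against 13.2 ± 3.29 CPM in OVA (+1.34, edgeR adjusted p = 0.0484), and Nfkbiz, a nuclear regulator of NF-kB, at 98.6 ± 21.3 CPM in TLR7 against 36.3 ± 10.0 CPM in OVA (+1.44, edgeR adjusted p = 0.0286). Ifng, the inducer of Cxcl9 and Cxcl10, averaged 365 ± 193 CPM in TLR7 and 102 ± 64.7 CPM in OVA (+1.83, edgeR adjusted p = 0.183), and 401 ± 157 CPM in TLR2. In the clear libraries it passed for TLR7 against OVA (+2.60, edgeR adjusted p = 0.0298), where 9 of 29 regulators were higher, against 1.30% of all genes, and 0 lower. Against TLR2 at 24 h, 4 of 29 were higher in TLR7, against 0.632% of all genes, and 0 lower: Stat2 (+1.68, edgeR adjusted p = 0.0172) and Irf9 (+0.96, edgeR adjusted p = 0.0172), which form the factor that binds the ISRE, Irf7 (+2.34, edgeR adjusted p = 0.0302) and Egr1 (+0.69, edgeR adjusted p = 0.0401), which did not pass in the clear libraries (+0.73, edgeR adjusted p = 0.106). With time under TLR7, 15 of 29 fell and 2 rose, against 24.2% and 19.0% of all genes. Ifng fell to 35.0 ± 12.3 CPM at 72 h (-3.38, edgeR adjusted p = 0.000856) and Tnf to 20.6 ± 3.05 CPM (-0.71, edgeR adjusted p = 0.0457). The others that fell included Tbx21, Irf1, Rel, Nfkbia, Irf4, Nfkb2, Il2, Nfkb1, Nfkbiz, Egr2, Egr1 and Irf8, and the 2 that rose were Ifngr1 and Nfatc2. Under TLR2, 7 rose (Irf9, Il12rb2, Ifngr1, Nfatc2, Egr1, Stat2 and Runx3) and 3 fell (Nfkb1, Irf8 and Ifng), against 21.7% and 17.4% of all genes, with Ifng at -1.47 (edgeR adjusted p = 0.0447) and Tnf at -0.06. Under OVA, 6 rose (Ifngr1, Ifngr2, Egr1, Stat2, Klf13 and Stat4) and 5 fell (Rel, Irf4, Nfkb1, Irf8 and Ifng), against 8.17% and 10.4% of all genes, with Ifng at -1.90 (edgeR adjusted p = 0.036) and Tnf at +0.26. Of these calls with time, Stat4 under OVA did not pass in the clear libraries (+0.67, edgeR adjusted p = 0.0611). All others under TLR7 and OVA did. Under every leave-out of 1 library, 15 of the 17 calls under TLR7 passed, 3 of the 10 under TLR2 and 0 of the 11 under OVA.

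At 72 h, 5 of 29 regulators were lower in TLR7 than in OVA, against 3.21% of all genes, and 0 higher, among them Nfatc1, Egr1, Irf8 and Stat4, with Ifng at +0.35 and Tnf at +0.37, neither past the threshold. Against TLR2 at 72 h, 8 were lower in TLR7, against 3.93% of all genes, and 0 higher, namely Irf1, Rel, Il2, Nfkbiz, Egr2, Egr1, Irf8 and Ifng (-2.05, edgeR adjusted p = 0.0452), with Tnf at -0.04. In the clear libraries none of these passed, and the 1 call was Egr2, lower in TLR7 than in OVA (-1.07, edgeR adjusted p = 0.0372). None of the regulator calls between agents passed under every leave-out of 1 library. TLR2 against OVA gave 0 of 29 at either time, with Ifng at +2.40 and Tnf at +0.41 at 72 h and at +1.97 and +0.73 at 24 h. TLR7 against TLR2 at 24 h left Ifng at -0.14 and Tnf at +0.61. The TLR7 effect was lower at 72 h than at 24 h for 3 of 29, against 0.701% of all genes, Egr2 and Egr1 among them, with Ifng at -1.48 and Tnf at -0.97, and the TLR2 effect for 0, with Ifng at +0.43 and Tnf at -0.32.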

How the data were processed

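Messenger RNA was sequenced from T cells selected from splenocyte cultures, per the labels' protocols with a stranded poly-A kit. Each library came with a file of expected counts by gene that the authors deposited unscaled: over all files 28.7% of nonzero values have decimals. STAR, RSEM and edgeR on build GRCm38 are named in the submitters' processing notes, without their roles; versions, annotation and strand setting are not stated there.

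Expected counts were rounded. CPM used TMM-scaled library sizes. All 24 libraries entered 1 edgeR (4.0.16, R 4.3.3) quasi-likelihood model of the 6 groups (18 residual degrees of freedom), after filterByExpr (minimum count 10, total 15) kept 14560 genes. P-values were Benjamini-Hochberg adjusted over these genes with a threshold of 0.05. An edgeR SE here is the size of the log2 fold change divided by the square root of its F statistic. It is not a fitted error, and the 95% intervals of log2 differences are built on it. The 11 contrasts were 9 between 2 groups each and 2 that set an agonist effect at 72 h against that at 24 h. The test was tried on simulated counts first. Promoter motifs were searched by letters; positions are from GENCODE M21.

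Alternatives were DESeq2 (1.42.0) with its size factors, RLE scaling in edgeR, no filter on low counts, a replicate block, a fit on only the groups compared and leaving out each library. Leaving out the 8 middle libraries, which lie between 25% and 75% of the range of the first principal component of log2 CPM (prior count 2), or the 5 libraries under 15 M counts was chosen after seeing the data. That component follows time, so tests of 72 h against 24 h in the clear libraries understate the spread within groups. The chemokine genes and all lists were chosen with earlier results of these data known. The 9 genes are named throughout; other ligands, receptors and regulators are named where they pass, with Ifng and Tnf always and the receptor Cxcr3 added after its values were seen. Some genes of these lists are not reported here. The 3 genes most like each member were taken by r, without predicted genes and antigen receptor segments.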

Additional observations from a re-analysis of the deposited data

Results flagged for a closer look

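Each gene in each group of 4 libraries was tested by Dixon's criterion, the gap of 1 library to its neighbour against the whole range. By it 1 library stood apart from the other 3 in 12 of 50 such sets. Chance alone gives about 1 in 20 for independent sets, but these sets share the same 24 libraries and are not independent. Of these 12, 8 were middle libraries.

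OVA replicate 4 at 72 h, a middle library, stood above the other OVA libraries of that time for 7 genes: Xcl1 (423 CPM), Ccl3 (235 CPM), Ccl4 (278 CPM), Ccl1 (2.07 CPM), Ccl9 (23.9 CPM), Ccl22 (4.90 CPM) and Cxcl9 (2.15 CPM). OVA replicate 3 at 72 h stood above the others for Ccl5, at 43.6 CPM. TLR7 replicate 3 at 72 h stood above for Xcl1, at 7.62 CPM, and TLR7 replicate 4 at 24 h, a middle library, for Ccl22, at 0.724 CPM. For Cxcl9 at 24 h, TLR2 replicate 2 stood above the others at 14.1 CPM and OVA replicate 2 at 23.1 CPM.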

How the results depend on the processing

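Numbers of chemokine genes called changed most with the libraries used. Without the 8 middle libraries the counts were 3 for TLR7 against OVA at 24 h (0 with all), 2 at 72 h (4), 1 for TLR7 against TLR2 at 24 h (0), 0 at 72 h (7), 8 for 72 h against 24 h under OVA (3) and 8 under TLR2 (1), and 1 for the TLR7 effect at 72 h minus 24 h (0). Without the 5 shallow libraries the 5 counts above 0 all became 0, with fewer samples in the fit. How many of all genes passed there was not counted, so the loss cannot be read as particular to these genes. For TLR7 against TLR2 at 72 h, Xcl1, Ccl3, Ccl4 and Cxcl10 were then at -5.88, -6.23, -6.08 and -4.57, each with an edgeR adjusted p of 0.365. DESeq2 called 2, 8, 1 and 3 genes for TLR7 against OVA at 24 h and at 72 h, TLR7 against TLR2 at 24 h and the TLR7 effect at 72 h minus 24 h. Its calls over all genes were not counted. A fit on only the groups compared gave 0 for TLR7 against OVA at 72 h, 1 for TLR7 against TLR2 at 24 h and 0 for 72 h against 24 h under OVA. Without a filter on low counts, 72 h against 24 h under TLR2 gave 0. Where no value shows it, the cause was not tested. RLE scaling moved no count by over 1.5 times.

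Leaving out 1 library gave 0 to 7 calls for TLR7 against OVA at 72 h, 0 to 5 for TLR2 against OVA at 72 h, 0 to 8 for TLR7 against TLR2 at 72 h, 0 to 8 for 72 h against 24 h under OVA, 0 to 1 under TLR2 and 6 to 6 under TLR7, and 0 to 3 for the TLR7 effect at 72 h minus 24 h (3 without OVA replicate 1 at 72 h, 1 without TLR7 replicate 4 at 24 h or replicate 3 at 72 h). The log2 fold change of Ccl1 at 72 h against 24 h under TLR2, 0.23 with all libraries, was -6.42 without the middle and 0.00 without the shallow libraries, and ran from -1.58 to 0.71 when 1 library was left out (-0.03 without TLR2 replicate 2 at 24 h, -1.58 without replicate 1 at 72 h).

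Same-numbered libraries of different groups had deviations from their group means with a median r of 0.04 (-0.62 to 0.53). Of 24 libraries, 8 were closest to a library of their own number. These deviations hold the split between middle and clear libraries, which falls on different numbers in different groups. They therefore cannot show whether replicate numbers pair the libraries. With the number as a block, 0 genes were called for TLR7 against OVA at 72 h, 7 for TLR7 against TLR2 at 72 h, 2, 0 and 6 for 72 h against 24 h under OVA, TLR2 and TLR7, and 0 in the other comparisons; Ccl1 under TLR2 was at -0.04.

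With 3 counts as the floor, Ccl1, and Ccl22 and Cxcl9 at 72 h, are near the limit of what this depth shows. So are Cxcl11 at 72 h, Ccr9 in TLR7 libraries at 72 h and Cxcr1 in TLR2 libraries at 24 h.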

Other observations

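TLR2 replicate 4 at 72 h, a middle library, had Ccl22 at 0.804 CPM, 7.61% of the clear TLR2 mean at 24 h and close to the 0.724 CPM of TLR7 replicate 4 at 24 h, while its Ccl3 was at 278 CPM, 89.7% of that mean. TLR2 replicate 1 at 72 h, also a middle library, had Ccl1 at 2.04 CPM, 391% of the clear TLR2 mean at 24 h, with Ccl3 at 96.3 CPM, 31.0%. OVA replicate 3 at 72 h, with the high Ccl5, also had the highest Ccl9 (3.09 CPM) and Ccl22 (0.819 CPM) of the clear 72 h libraries and a B cell marker sum of 885 CPM.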
